A study of Mus musculus with 6 samples.

Results

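The amino acid transporter genes of cultured mouse pancreatic buds were examined as 6 gene families. The members were chosen by name: protein-coding genes of the deposited table whose symbol begins with Slc1a, Slc3a, Slc7a, Slc36a, Slc38a or Slc43a, which gave 43 of 54532 genes. Buds were taken from embryos at E12.5, when the pancreas is a branching epithelium of progenitors within mesenchyme, and were cultured for 2 days in medium with 10% fetal bovine serum and 0.1% DMSO. The TBZ group (3 libraries) received 0.1 µM tetrabenazine for the whole culture, and the control group (3 libraries) received DMSO alone. Tetrabenazine blocks VMAT2, the carrier that loads monoamines into vesicles, and the study asked how this pathway acts on the developing pancreas. The labels name no strain, sex or number of pooled buds, and each library is whole bud, so fewer cells of a type and less RNA per cell cannot be told apart.

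Amino acids cross membranes through several families of carriers. SLC3 proteins are heavy chains that bring SLC7 light chains to the cell surface, where the pair exchanges one amino acid for another. SLC1 carriers take up glutamate or swap small neutral amino acids, SLC38 carriers import glutamine and other neutral amino acids with sodium (system A and system N), SLC36 carriers move amino acids with protons, and SLC43 carriers let large neutral amino acids through. Secretory tissue is known for a high demand for amino acids, and several of these genes are known targets of ATF4, the transcription factor of the amino acid response. Slc7a6os carries the prefix because it lies beside Slc7a6, and its product is not a transporter.

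The libraries held 40840929, 40973254 and 35825033 counted reads in TBZ replicates 1 to 3, and 46976677, 50620936 and 41005819 in control replicates 1 to 3. Control replicate 3 stood apart on the first principal component (25.4, against -14.6 to 2.88 for the other libraries), and its 10 stomach and oesophagus markers summed to 77.0 CPM, against 8.21 to 15.9 CPM in TBZ and 14.1 to 14.5 CPM in the other controls. Acinar markers, a check of the labelled tissue, were present in all libraries, with a sum over 12 genes of 8254 to 9910 CPM in TBZ and 5509 to 6523 CPM in control libraries. Of these 12 markers edgeR called 8 higher in TBZ and none lower at an adjusted p under 0.05. Of all 18226 tested genes 0.154% were called higher and 0.0329% lower. An unadjusted edgeR p under 0.05 was found in 11 markers, against 9.61% of all tested genes. DESeq2 called 10 markers, all higher, where 1.1% of its tested genes were called higher.

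The promoters of Slc7a11 and Slc1a4 are shown as examples of windows with the CARE, the element to which ATF4 binds, and Slc7a11 is the member with a negative difference and the smallest p, described with Slc1a4 further on. Slc7a11 encodes xCT, which imports cystine in exchange for glutamate, and Slc1a4 encodes the neutral amino acid exchanger ASCT1. Each window runs from 250 bases before to 50 bases after the RefSeq start (GRCm38.p6, minus strand), and capitals mark each match to the CARE, searched as TGATGNAA on both strands. The first lies at chr3:50443564-50443863 and the second at chr11:20332664-20332963.
Slc7a11: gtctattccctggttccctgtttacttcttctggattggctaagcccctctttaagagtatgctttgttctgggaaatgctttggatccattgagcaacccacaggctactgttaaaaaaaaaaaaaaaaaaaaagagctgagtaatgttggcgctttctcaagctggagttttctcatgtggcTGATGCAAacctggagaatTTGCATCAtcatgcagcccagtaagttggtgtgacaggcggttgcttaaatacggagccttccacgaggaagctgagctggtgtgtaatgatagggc
Slc1a4: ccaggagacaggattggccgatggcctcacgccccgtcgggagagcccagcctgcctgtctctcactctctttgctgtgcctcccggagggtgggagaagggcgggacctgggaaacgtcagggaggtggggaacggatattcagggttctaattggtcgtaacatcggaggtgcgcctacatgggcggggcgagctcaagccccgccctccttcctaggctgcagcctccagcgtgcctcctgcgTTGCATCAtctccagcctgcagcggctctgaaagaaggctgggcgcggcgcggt
The Slc7a11 window held a pair of matches on opposite strands, beginning at -66 and -47, and the Slc1a4 window held 1, beginning at -4. RefSeq windows were found for 32 of the 43 members (43 windows), and 4 windows of 3 genes held the motif, the third gene being Slc7a7. One Slc7a7 window also held 2 matches, both on its own strand and beginning at -141 and -1, and the second of these lies again in an overlapping window of the gene; these windows are not printed. Among all 32851 windows 3.97% held at least 1 match and 0.07% held 2 or more. A second motif, the antioxidant response element searched as TGACNNNGC on both strands, was in 6 member windows, of Slc36a1, Slc38a2, Slc43a1, Slc7a1 and Slc7a6, and in 12.39% of all windows; no member window held both motifs. Such matches are letters in a window and were not tested as binding sites.

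Most of the families were expressed, and a few genes held most of the signal. A mean of at least 1 FPKM (fragments per kilobase of gene, scaled to library size) in either group was reached by 29 of 43 members, 42 had at least 1 read and 35 passed the count filter of the test. The 10 highest members held 80.1 ± 0.453% of the summed FPKM of the members in TBZ and 78.8 ± 0.851% in control libraries (SD, n = 3 each). Members together took 0.277 ± 0.00377% of all counted reads in TBZ and 0.272 ± 0.00569% in control (SD, n = 3 each). Their summed FPKM was 547, 517 and 535 in TBZ replicates 1 to 3, and 533, 519 and 495 in control replicates 1 to 3, so the groups overlapped.

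**Figure D1:**
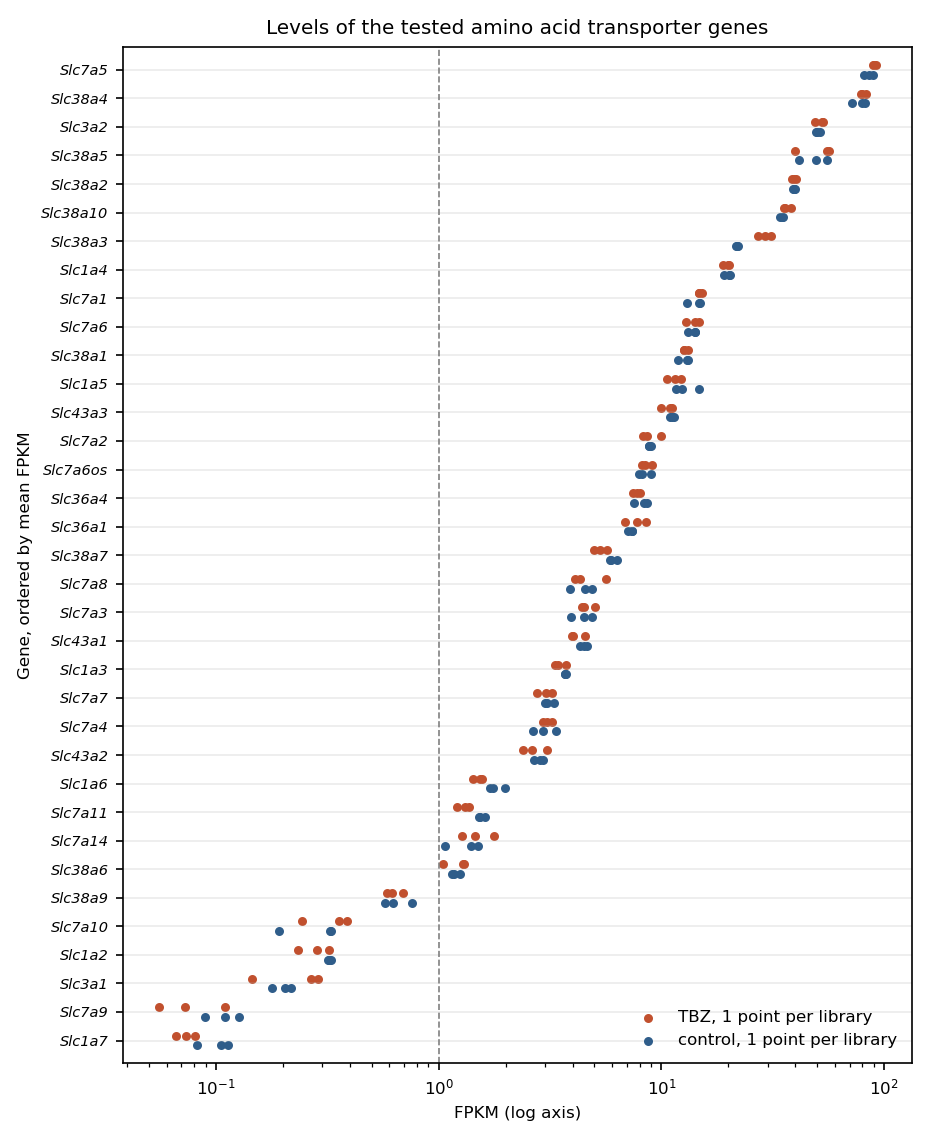
FPKM of the 35 tested members on a log axis, 1 point per library, TBZ above control in each row, ordered by mean FPKM; the dashed line marks 1 FPKM. Slc7a5 (87.95 FPKM over all libraries) and Slc38a4 (79.3) lead, and 6 tested members lie left of the line.

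In the order of mean FPKM over the 6 libraries, Slc7a5 was first at 87.95, followed by Slc38a4 (79.3), Slc3a2 (51.01), Slc38a5 (49.7), Slc38a2 (39.3), Slc38a10 (35.6), Slc38a3 (25.5), Slc1a4 (19.7), Slc7a1 (14.6) and Slc7a6 (13.9). Ranges over libraries overlapped between Slc7a5 and Slc38a4, between Slc3a2 and Slc38a5, between Slc38a5 and Slc38a2, and between Slc7a1 and Slc7a6. The other neighbours among these 10 lay apart. FPKM divides by all annotated exon bases of a gene, so genes with long alternative ends, such as Slc7a11 with 13922 bases, have low FPKM for their counts.

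In TBZ buds edgeR called 1 transporter gene, Slc38a3, at 1.33-fold of control, and several alternative fits given below did not keep this call. Of 35 tested members 1 was called higher at an edgeR adjusted p under 0.05, where 0.154% of all 18226 tested genes were called higher. No member was called lower by edgeR, where 0.0329% of tested genes were, and DESeq2 called Slc38a3 alone, higher, where 1.43% of its tested genes were called and 1.1% called higher. Before adjustment 3 members had an edgeR p under 0.05, Slc38a3 above 0 and Slc7a11 and Slc38a7 below it, against 9.61% of tested genes. Values above 0 were found in 19 members and below 0 in 16 (50.1% of all tested genes were above 0), with a median of 0.02 over the members and 0.00 over all tested genes. Groups did not overlap in 7 of 35 members (20.0%), against 15.5% of all tested genes: TBZ was above control in 3 members and in 8.47% of all genes, and below control in 4 members and in 7.03% of all genes.

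**Figure D2:**
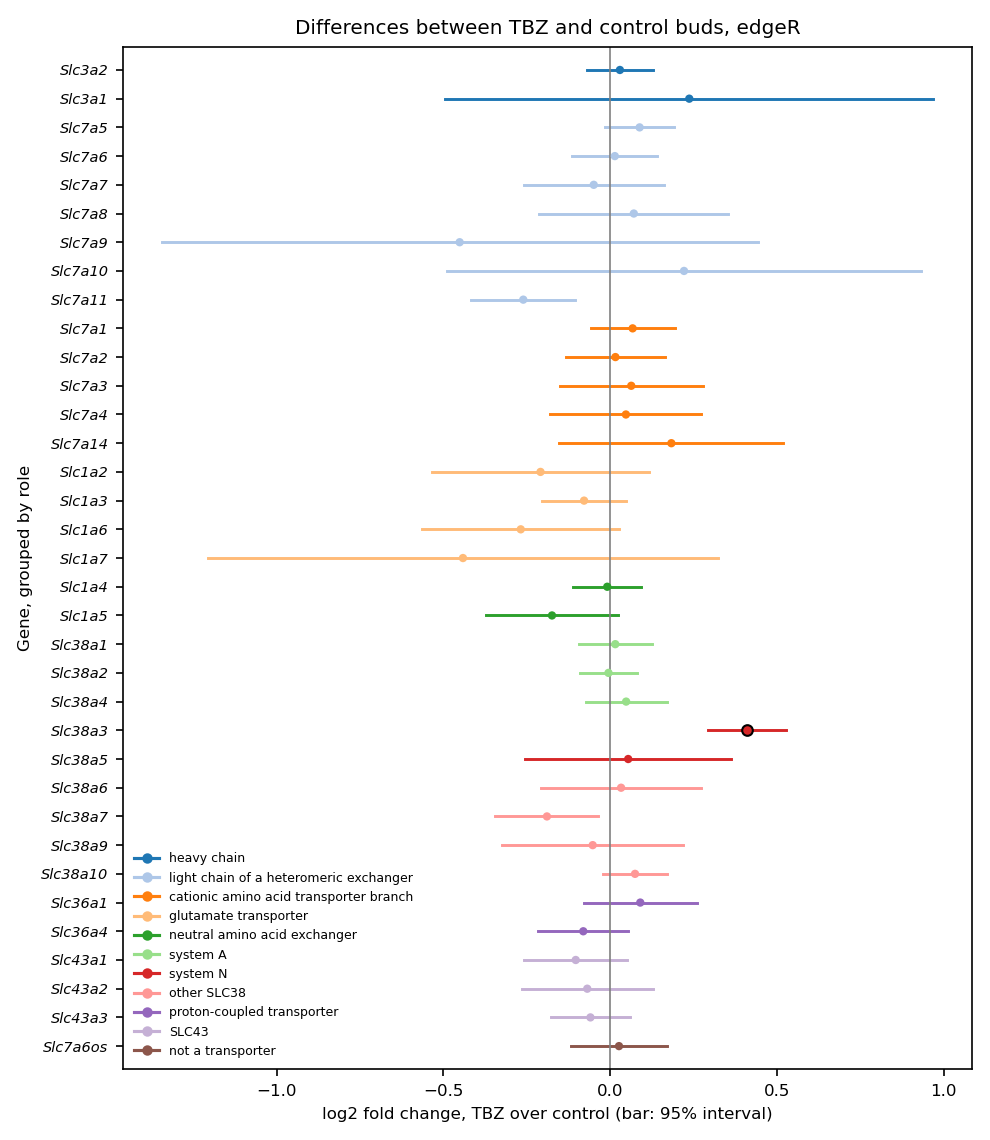
Log2 fold change of TBZ over control for the 35 tested members with 95% intervals from the edgeR fit, coloured by role; the outlined point passed the adjusted threshold. Slc38a3, at 0.41, is the one member called, and intervals are wide for the low genes Slc7a9, Slc1a7, Slc3a1 and Slc7a10.

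The system N carriers Slc38a3 and Slc38a5, which exchange glutamine, asparagine and histidine with sodium against protons, gave 1 call between them. Slc38a3 encodes SNAT3, known from liver, kidney and brain as a glutamine carrier, and lies on chromosome 9 at positions 107650634 to 107669530 (mm10, minus strand, 17 merged exons). It stood at 154, 144 and 164 CPM in TBZ replicates 1 to 3, against 117, 116 and 114 CPM in control replicates 1 to 3. Every TBZ library was above every control library. The means were 154 ± 10.2 CPM in TBZ and 116 ± 1.44 CPM in control (SD, n = 3 each). On the log2 scale TBZ exceeded control by 0.41 ± 0.05 (SE, 95% interval 0.29 to 0.53, edgeR adjusted p = 0.0270). In FPKM the gene had 29.0 ± 1.89 in TBZ and 21.9 ± 0.285 in control (SD, n = 3 each).

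The size of the Slc38a3 difference kept within 0.36 to 0.46 whichever library was left out, but its call did not. Without TBZ replicate 1 the edgeR adjusted p was 0.112 at a log2 fold change of 0.41, without TBZ replicate 3 it was 0.130 at 0.36, and without control replicate 2 it was 0.0924 at 0.41. Without control replicate 3, the library apart from the others, the call held at 0.40 (adjusted p = 0.0424). The call also ended in limma on log2(FPKM + 0.5) (0.40, adjusted p = 0.0955), on log2(FPKM + 1) (0.39, 0.0939) and on unfiltered FPKM (0.40, 0.177). With the replicate number as a block in edgeR it ended as well (0.41, adjusted p = 0.122). The authors' deposited table lists a log2 fold change of 0.41 with an adjusted p of 2.99e-08 for Slc38a3. DESeq2 gave the same rounded values here (0.41, adjusted p = 2.99e-08) from the same counts, so the deposited values are not separate evidence. Acinar markers rose in the same libraries (8254 to 9910 CPM summed in TBZ, 5509 to 6523 CPM in control). Of 12 endocrine markers 11 had positive log2 fold changes, against 50.1% of all tested genes, and edgeR called none. An unadjusted edgeR p under 0.05 was found in 3, against 9.61%, and DESeq2 called 1, against 1.43% of its tested genes. Groups did not overlap in 1 endocrine marker (8.33%), against 15.5% of all tested genes. Endocrine markers summed to 719 to 1014 CPM in TBZ and 714 to 836 CPM in control. The part of acinar and endocrine markers in the Slc38a3 difference was not tested.

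Slc38a5 encodes SNAT5, a system N carrier known from exocrine pancreas and from alpha cells. It had 127, 89.9 and 125 CPM in TBZ replicates 1 to 3, against 125, 111 and 93.4 CPM in control replicates 1 to 3. The groups overlapped (log2 0.05 ± 0.14 SE, 95% interval -0.25 to 0.36, edgeR adjusted p = 0.931), and the sign turned when TBZ replicate 1 (-0.03), TBZ replicate 3 (-0.02) or control replicate 3 (-0.05) was left out. TBZ replicate 2 and control replicate 3 were the lowest libraries for Slc38a5, and they were also the lowest in summed endocrine markers (719 and 714 CPM). Each also had the lowest acinar sum of its own group (8254 and 5509 CPM). The relation of Slc38a5 to either marker sum was not tested. Among the 10 highest members Slc38a5 varied most between replicates, with a coefficient of variation of 18.3% in TBZ and 14.4% in control.

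**Figure D3:**
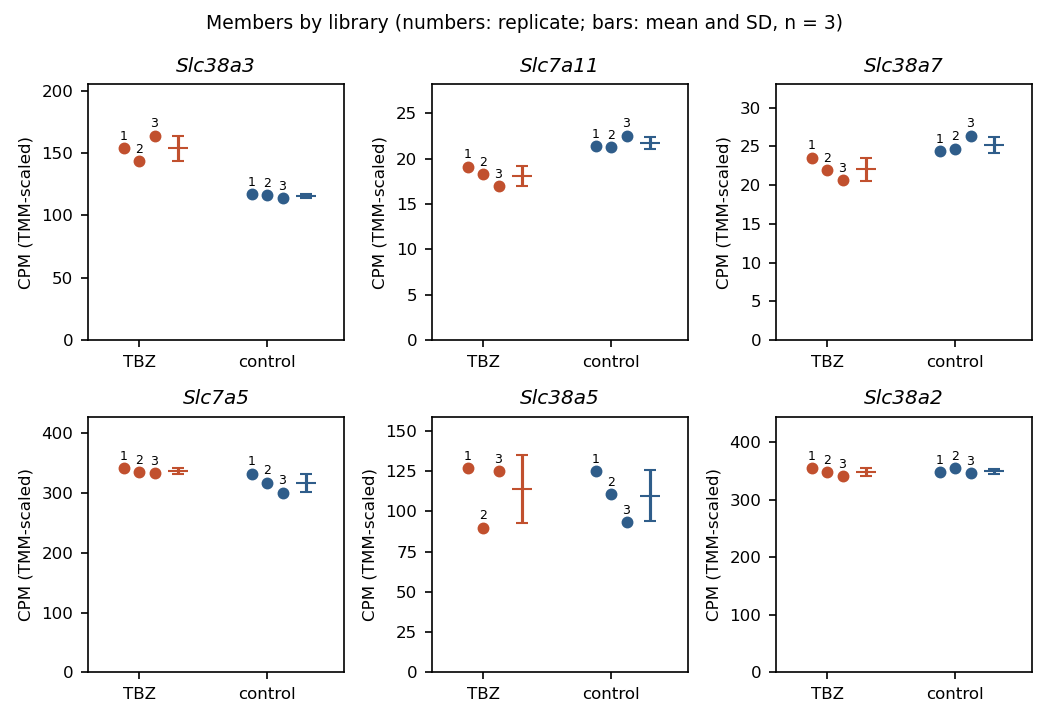
TMM-scaled CPM of 6 members in each library, TBZ left and control right in each panel, with replicate numbers and the mean and SD (n = 3) beside the points. Slc38a3 is above control in all TBZ libraries, Slc7a11 and Slc38a7 are below it, and Slc38a5 spreads over 89.9 to 127 CPM in TBZ and 93.4 to 125 CPM in control.

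No system A gene was called. Slc38a2 encodes SNAT2, a carrier that many cells induce when amino acids run short, and stood at 355, 348 and 341 CPM in TBZ replicates 1 to 3, against 348, 355 and 346 CPM in control. The fitted difference was -0.01 ± 0.04 (SE, 95% interval -0.09 to 0.08, edgeR adjusted p = 0.982). Slc38a4, an imprinted gene whose product SNAT4 also carries cationic amino acids, had 356, 336 and 342 CPM in TBZ, against 351, 341 and 308 CPM in control (log2 0.05 ± 0.05 SE, 95% interval -0.07 to 0.17, edgeR adjusted p = 0.820). Slc38a1, which encodes SNAT1, was at 222 ± 4.58 CPM in TBZ and 219.6 ± 11.9 CPM in control (SD, n = 3 each), a difference of 0.02 (log2; edgeR adjusted p = 0.947). Slc38a1 and Slc38a2 lie 44.5 kb apart on chromosome 15.

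Of the other SLC38 genes, Slc38a10, a little characterised carrier of high level, stood at 229, 231 and 246 CPM in TBZ, against 225, 225 and 220 CPM in control. Its groups did not overlap, and the difference did not pass (log2 0.07 ± 0.04 SE, 95% interval -0.02 to 0.17, edgeR adjusted p = 0.626). Slc38a7, whose product exports glutamine and asparagine from lysosomes, had 23.6, 21.97 and 20.7 CPM in TBZ, against 24.4, 24.7 and 26.4 CPM in control, all TBZ values below all control values (log2 -0.19 ± 0.07 SE, edgeR adjusted p = 0.415). Slc38a9, the lysosomal arginine sensor of mTORC1, was at 0.631 FPKM in TBZ and 0.653 FPKM in control, under 1 FPKM (log2 -0.05, edgeR adjusted p = 0.925). Its FPKM is low for its counts (10.6 CPM in TBZ and 10.9 CPM in control), since the gene has 16704 exon bases. Slc38a6 was at 1.21 FPKM in TBZ and 1.19 FPKM in control, and Slc38a8 and Slc38a11 were too low to be tested.

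Slc3a2, the heavy chain CD98, and its light chains were expressed without a called difference. Slc3a2 had 187, 186 and 174 CPM in TBZ, against 183, 176 and 178 CPM in control (log2 0.03 ± 0.04 SE, 95% interval -0.07 to 0.13, edgeR adjusted p = 0.870). Slc7a5 encodes LAT1, the exchanger of large neutral amino acids, and had 342, 335 and 334 CPM in TBZ, against 333, 318 and 301 CPM in control. All TBZ values lay above all control values, and the difference did not pass (log2 0.09 ± 0.05 SE, 95% interval -0.01 to 0.19, edgeR adjusted p = 0.587). The summed FPKM of the 6 light chains that pair with Slc3a2 (Slc7a5, Slc7a6, Slc7a7, Slc7a8, Slc7a10 and Slc7a11) was 2.21 ± 0.0924 times the Slc3a2 FPKM in TBZ and 2.15 ± 0.0671 times in control (SD, n = 3 each). Slc7a5 alone made 79.6 ± 1.08% of that sum in TBZ and 78.6 ± 0.723% in control (SD, n = 3 each).

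Slc7a11, whose protein forms the cystine and glutamate exchanger with Slc3a2, had the smallest p among members with a negative log2 fold change. It stood at 19.1, 18.3 and 16.96 CPM in TBZ replicates 1 to 3, against 21.4, 21.2 and 22.5 CPM in control replicates 1 to 3. All TBZ values lay below all control values, and the gene did not pass over all genes (log2 -0.26 ± 0.07 SE, 95% interval -0.42 to -0.10, unadjusted p = 0.00422, edgeR adjusted p = 0.245). Its adjusted p was 0.146 in the authors' deposited table and also 0.146 with DESeq2 here, from the same counts. Over the 13 alternative fits its log2 fold change lay between -0.30 and -0.15, and no fit called it. The -0.15 came from limma on log2(FPKM + 1), where the added 1 shrinks the difference of a gene at 1.43 FPKM. Slc1a4 and Slc7a7, the other members with the CARE in a promoter window, had log2 fold changes of -0.01 and -0.05 (edgeR adjusted p = 0.970 and 0.903).

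The remaining light chains showed no called difference. Slc7a6 (y+LAT2, which exchanges cationic for neutral amino acids) had 63.8 ± 4.17 CPM in TBZ and 63.2 ± 2.44 CPM in control (SD, n = 3 each), a difference of 0.01 ± 0.06 (log2, SE; edgeR adjusted p = 0.961). Slc7a8 (LAT2) had 28.2, 20.5 and 21.7 CPM in TBZ, against 22.8, 24.5 and 19.6 CPM in control, with TBZ replicate 1 the highest of all. Slc7a7 (y+LAT1) averaged 10.0 CPM in TBZ and 10.4 CPM in control, and Slc7a10 (Asc-1) 0.697 CPM in TBZ and 0.597 CPM in control. The pair known from kidney and gut, the heavy chain Slc3a1 and its light chain Slc7a9, was low, at 0.233 FPKM in TBZ and 0.200 FPKM in control for Slc3a1 and at 0.0794 FPKM in TBZ and 0.109 FPKM in control for Slc7a9. Slc7a12 had no read in any library, which allows up to 3 reads in each (0.0732 to 0.0837 CPM in TBZ and 0.0593 to 0.0732 CPM in control, counting error only), and Slc7a13 and Slc7a15 had at most 2 and 6 reads in a library.

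No cationic amino acid carrier of the SLC7 family was called. Slc7a1 encodes CAT1, the main carrier of arginine and lysine in many cells, and stood at 177, 171 and 170 CPM in TBZ, against 170, 173 and 151 CPM in control (log2 0.07 ± 0.06 SE, 95% interval -0.06 to 0.19, edgeR adjusted p = 0.744). Slc7a2 (CAT2) had 75.5, 90.9 and 79.2 CPM in TBZ and 82.0, 80.3 and 80.6 CPM in control; the TBZ libraries were both the lowest and the highest. Slc7a3 (CAT3) was at 4.64 FPKM in TBZ and 4.45 FPKM in control, Slc7a4 at 3.08 FPKM in TBZ and 2.98 FPKM in control, and Slc7a14 at 1.503 FPKM in TBZ and 1.32 FPKM in control. All 5 genes of this branch had log2 fold changes above 0, between 0.02 and 0.18, and none passed in edgeR, before or after adjustment, or in DESeq2; the signs of Slc7a2, Slc7a3 and Slc7a4 turned when 1 library was left out. In the GENCODE M21 annotation, exons of 10 members share bases with a gene on the opposite strand. Among them are Slc1a1 with 4430402I18Rik (31.9% of its exon bases), Slc3a1 with Prepl (26.5%), Slc7a10 with Lrp3 (17.9%) and Slc7a4 with P2rx6 (13.3%). Slc1a1 has 8257 exon bases there but a deposited gene length of 6170, so its share of the counted bases is not known. No source used here says that reads were counted by strand, so reads of such pairs cannot be told apart.

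**Figure D4:**
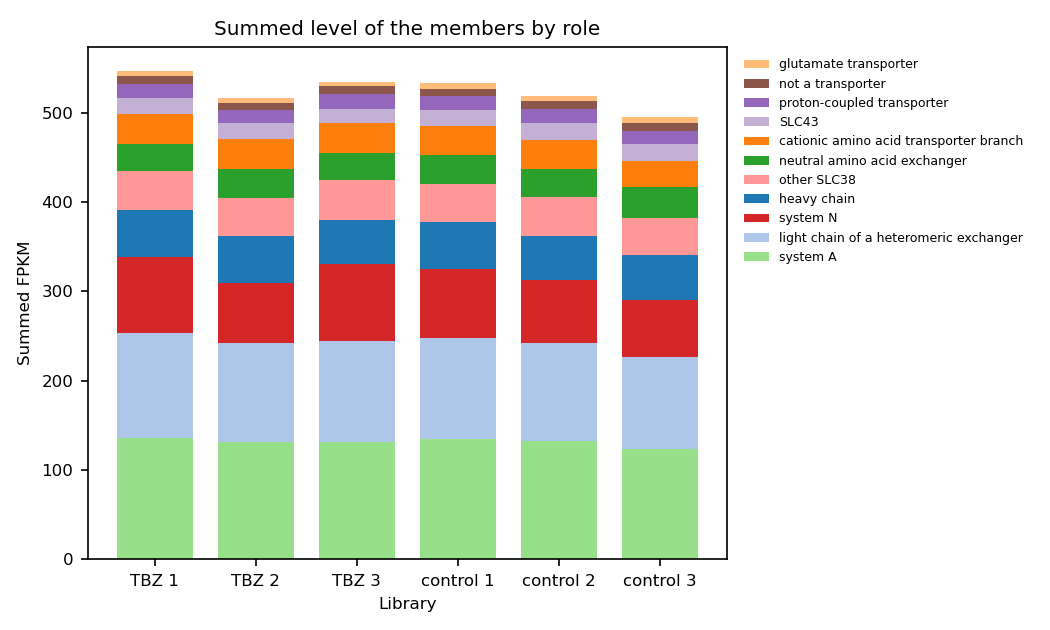
Summed FPKM of all 43 members in each library, TBZ left and control right, stacked by role. System A genes hold 132.7 FPKM in TBZ and 130.2 FPKM in control on average, and the total runs from 517 to 547 in TBZ and from 495 to 533 in control.

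The 6 tested SLC1 genes lay below 0, and none was called. They had log2 fold changes between -0.44 and -0.01 with a median of -0.19, none passed in edgeR, none had an unadjusted p under 0.05, and DESeq2 called none. Slc1a5, which encodes the glutamine exchanger ASCT2, had 44.2, 51.2 and 48.1 CPM in TBZ, against 51.7, 48.7 and 61.6 CPM in control (log2 -0.17 ± 0.09 SE, 95% interval -0.37 to 0.02, edgeR adjusted p = 0.577). Control replicate 3, the library with high stomach markers, was the highest, and without it the log2 fold change was -0.07 (edgeR adjusted p = 0.793). Slc1a4 (ASCT1) stood at 78.8, 78.9 and 74.8 CPM in TBZ, against 79.1, 79.8 and 75.01 CPM in control (log2 -0.01 ± 0.04 SE, 95% interval -0.11 to 0.09, edgeR adjusted p = 0.970), and its sign turned when 1 library was left out (up to 0.014).

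Several glutamate transporters of the SLC1 family are known from glia and neurons. The 5 genes held 1.08% of the summed FPKM of the members, and 2 of them reached 1 FPKM in a group. Slc1a3 (GLAST), the highest of them, had 28.5, 31.8 and 29.6 CPM in TBZ, against 31.9, 31.5 and 31.6 CPM in control (log2 -0.08 ± 0.06 SE, edgeR adjusted p = 0.700). Slc1a6 (EAAT4), known from Purkinje cells, had 3.30, 3.36 and 3.08 CPM in TBZ, against 3.80, 3.67 and 4.28 CPM in control, without overlap (log2 -0.27 ± 0.13 SE, edgeR adjusted p = 0.558). Slc1a2 (GLT-1) averaged 0.279 FPKM in TBZ and 0.323 FPKM in control (log2 -0.21 ± 0.14 SE, edgeR adjusted p = 0.689). Slc1a7 (EAAT5), known from retina, had 8 to 11 reads in a TBZ library and 13 to 18 in a control library (log2 -0.44 ± 0.34 SE, edgeR adjusted p = 0.720), and Slc1a1 (EAAT3) had 6 to 17 reads and was not tested. Of 10 neural crest, glia and neuron markers 9 were below 0 in TBZ too, with sums of 170 to 182 CPM in TBZ and 166 to 221 CPM in control. None of these markers was called by edgeR or DESeq2. An unadjusted edgeR p under 0.05 was found in 5 of them, against 9.61% of all tested genes. Groups did not overlap in 3 (30%), against 15.5% of all tested genes. TBZ was above control in 1 of these (8.47% of all tested genes) and below it in 2 (7.03%). Control replicate 3 had the highest sum (221 CPM), and control replicates 1 and 2, at 185 and 166 CPM, lay on either side of the TBZ range. The part of these markers in the glutamate transporter values was not tested.

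Proton-coupled and SLC43 carriers completed the set. Slc36a1 (PAT1), a lysosomal amino acid exporter, had 43.8, 38.7 and 48.4 CPM in TBZ, against 41.4, 41.6 and 39.9 CPM in control (log2 0.09 ± 0.08 SE, edgeR adjusted p = 0.746). Slc36a4 (PAT4) had 52.4, 51.1 and 48.8 CPM in TBZ, against 55.0, 56.7 and 49.3 CPM in control (log2 -0.08 ± 0.06 SE, edgeR adjusted p = 0.709). Their neighbours on chromosome 11 near Slc36a1, Slc36a2 and Slc36a3, had at most 3 and 1 reads in a library. Slc43a1 (LAT3) had 25.9, 22.8 and 23.1 CPM in TBZ, against 24.8, 25.7 and 26.7 CPM in control (log2 -0.10 ± 0.07 SE, edgeR adjusted p = 0.673). Slc43a2 (LAT4) averaged 27.2 ± 3.42 CPM in TBZ and 28.5 ± 1.27 CPM in control (SD, n = 3 each), and Slc43a3, whose product carries nucleobases, 48.0 ± 2.79 CPM in TBZ and 50.02 ± 1.09 CPM in control (SD, n = 3 each). Slc7a6os was at 8.54 FPKM in TBZ and 8.39 FPKM in control.

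Genes of amino acid handling outside the 6 families were followed in 5 lists, and edgeR called none of them. Of 25 amino acid response genes (ATF4 and its targets), 15 were above 0 and 10 below (median 0.04). DESeq2 called 1 of them, higher, where 1.1% of its tested genes were called higher. An unadjusted edgeR p under 0.05 was found in 8 of them, against 9.61% of all tested genes. Groups did not overlap in 9 (36%), against 15.5% of all tested genes. TBZ was above control in 6 of these (8.47% of all tested genes) and below it in 3 (7.03%). Summed levels of the list were 2599 to 2678 CPM in TBZ and 2501 to 2566 CPM in control. The gene called by DESeq2 was Nupr1, a stress-induced chromatin protein gene. It had 203 ± 14.0 CPM in TBZ and 165 ± 8.35 CPM in control (SD, n = 3 each), a difference of 0.30 (log2, edgeR adjusted p = 0.124). Trib3 and Cebpg were among the 3 genes with TBZ below control. Trib3, a pseudokinase gene induced by ATF4, stood at -0.34 on the log2 scale (edgeR adjusted p = 0.256). Cebpg, which encodes a partner of ATF4, stood at -0.18 (edgeR adjusted p = 0.230). Of 20 cytoplasmic aminoacyl tRNA synthetase genes, which charge tRNAs with amino acids, 17 were above 0, against 50.1% of all tested genes. Their median log2 fold change was 0.05, with a range of -0.01 to 0.14. Groups did not overlap in 7 (35%), all with TBZ above control, against 8.47% of all tested genes in that direction. Summed levels were 3436 to 3499 CPM in TBZ and 3348 to 3368 CPM in control. An unadjusted edgeR p under 0.05 was found in 2, against 9.61% of all tested genes, and DESeq2 called none.

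Of 32 genes of mTORC1 amino acid sensing, 13 were above 0 and 19 below (median -0.02), and DESeq2 called none. An unadjusted p under 0.05 was found in 8 of them, against 9.61% of all tested genes, and groups did not overlap in 7 (21.9%), against 15.5%. The smallest p in that list were those of Sesn1, a stress-inducible sestrin (log2 0.18), Tfeb, a transcription factor of lysosomal genes (0.31), and Flcn, a regulator of RAG GTPases (-0.13), with edgeR adjusted p of 0.209, 0.280 and 0.426. Of 12 tested genes among 19 other amino acid carriers, 3 were above 0 and 9 below (median -0.07), with 1 unadjusted p under 0.05, that of the lysosomal cystine exporter gene Ctns (log2 -0.18, edgeR adjusted p = 0.470). Of 8 tested mitochondrial carriers 3 were above 0 and 5 below (median -0.02), and the glutamate carrier gene Slc25a22 had the 1 unadjusted p under 0.05 (log2 -0.24, edgeR adjusted p = 0.221). DESeq2 called no gene of either carrier list.

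**Figure D5:**
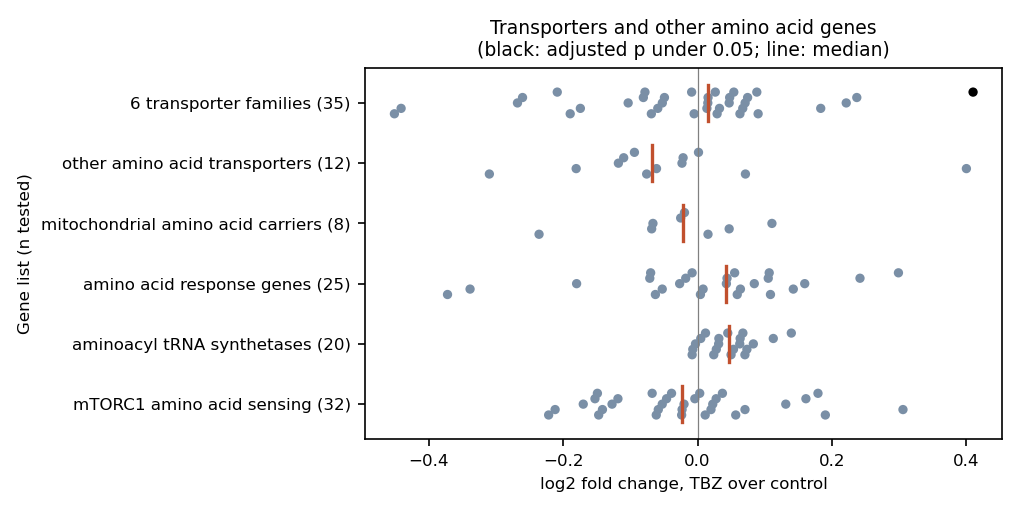
Log2 fold change of TBZ over control for the tested members of the 6 transporter families and of 5 other lists of amino acid genes, 1 point per gene with the median as a line. Slc38a3, in black at 0.41, is the one point past the threshold, and the list medians lie between -0.07 and 0.05.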

How the data were processed

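Poly-A RNA of 3 TBZ and 3 control samples of cultured pancreatic bud was sequenced. The submitters' processing notes name STAR, HTSeq and the build mm10, without roles or versions. The deposited table holds whole-number read counts, and FPKM values that the authors made by scaling to gene length and library size. Its signal columns (group means of scaled counts), log2 fold changes and p-values are the authors' own, per the file headers, with no tool named.

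Counts were tested here with the edgeR quasi-likelihood test (edgeR 4.0.16, R 4.3.3), TMM scaling and the filterByExpr filter; p-values were adjusted by Benjamini-Hochberg across the 18226 genes that passed, with a threshold of 0.05. CPM are TMM-scaled. The SE was taken from the fitted log2 difference and its F statistic (size divided by root F). Alternatives were DESeq2 1.42.0, RLE scaling, no filter, a replicate block, limma 3.58.1 on log2(FPKM + 0.5) or log2(FPKM + 1), and leaving out each library. All 43 members matched GENCODE M21, 42 with the same start and end. Full statistics went to members called by edgeR or DESeq2, the 12 smallest p, the 10 highest FPKM, Slc7a11 and Slc3a2, and up to 3 genes per list. Members and lists were chosen with earlier results of these data known. Samples are not stated to be separate cultures, and p-values then cover only the spread between these libraries, which may be technical. Depth was 35825033 to 50620936 counted reads; floors cover counting error only.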

Additional observations from a re-analysis of the deposited data

How the results depend on the processing

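Slc38a3 had a positive log2 fold change in all 13 alternatives (0.36 to 0.46) and was called with DESeq2, RLE scaling and no filter. It was not called with limma on log2(FPKM + 0.5) (0.40, adjusted p = 0.0955), log2(FPKM + 1) (0.39, 0.0939) or no filter on FPKM (0.40, 0.177), so these 3 fits called 0 members, with 4, 4 and 2 at an unadjusted p under 0.05. The labels do not say whether same-numbered libraries were paired. Deviations of same-numbered libraries correlated at -0.01, -0.18 and -0.08, and with 3 libraries per group such values cannot decide a pairing. With the replicate block edgeR called 0 members, and 3 had an unadjusted p under 0.05 (Slc38a3 0.41, adjusted p = 0.122). Leaving out 1 library gave 0 to 1 members called, 0 to 1 higher and 0 lower.

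Over all genes, calls were 222 with DESeq2 (170 higher, 52 lower), 445 with no filter (263 higher, 182 lower), 5 with the replicate block (4 higher, 1 lower), 3 with either filtered limma fit (2 higher, 1 lower) and 0 with limma on unfiltered FPKM (0 higher, 0 lower; 2135 at an unadjusted p under 0.05). With 1 library left out they ranged from 5 to 36, from 3 to 29 higher and from 2 to 8 lower. The total was 11 without TBZ replicate 1, 5 without TBZ replicate 3 and 13 without control replicate 2, against 34 with all libraries. The count of expressed members was 30 at 0.5 FPKM and 25 at 2 FPKM. Of 35 tested members 20 kept their sign throughout and 15, none of them called, turned when 1 library was left out. Their ranges were -0.030 to 0.065 for Slc7a6, -0.10 to 0.013 for Slc7a7, -0.086 to 0.16 for Slc7a8, -0.065 to 0.069 for Slc7a2, -0.014 to 0.13 for Slc7a3, -0.035 to 0.14 for Slc7a4, -0.033 to 0.014 for Slc1a4, -0.027 to 0.040 for Slc38a1, -0.022 to 0.0077 for Slc38a2, -0.0037 to 0.084 for Slc38a4, -0.047 to 0.20 for Slc38a5, -0.021 to 0.13 for Slc38a6, -0.14 to 0.076 for Slc38a9, -0.17 to 0.0068 for Slc43a2 and -0.019 to 0.083 for Slc7a6os. The cause of these turns was not tested.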
